A study of Mus musculus with 12 samples.

Results

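The 34 genes described here encode the chaperones, disulfide isomerases, stress sensors and degradation machinery of the endoplasmic reticulum (ER), the compartment in which secreted and membrane proteins are folded. They were chosen by name, as unfolded protein response and ER chaperone genes, from the 35599 genes of a mouse lung expression table, and all 34 were found in it. Lung RNA of 12 mouse samples had been sequenced, 4 in each of 3 groups. The control group had received saline. In the group called AE-PF, an acute exacerbation of lung fibrosis was modelled by challenge with bleomycin, which scars lung tissue, plus lipopolysaccharide (LPS), the bacterial endotoxin that provokes inflammation. The ND-RHL group was given this same challenge and was then treated with liposomes. These carried nintedanib, an inhibitor of growth factor receptor kinases, together with dexamethasone, a synthetic glucocorticoid, and bore hyaluronic acid and RGD peptides on their surface. Both drugs were given in 1 preparation, so their separate parts cannot be told apart. The sources used here do not give strain, sex, age, doses or days. They also do not say that the samples of a group were separate animals. The p-values therefore set group differences only against the scatter of these samples, which may be technical.

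When unfolded proteins build up in the ER, 3 sensors in its membrane set off the unfolded protein response. IRE1 (gene Ern1) splices the mRNA of the transcription factor XBP1, ATF6 is cut to release a transcription factor, and PERK (gene Eif2ak3) slows translation while favouring that of ATF4 and, through it, CHOP (gene Ddit3). XBP1 and ATF6 raise genes for chaperones and for ER-associated degradation (ERAD), which sends misfolded proteins to the proteasome. Cells that secrete much protein, among them the surfactant-making alveolar type 2 cell, the matrix-producing fibroblast and the antibody-secreting plasma cell, carry a large ER. The splicing of Xbp1, the cleavage of ATF6 and the activity of PERK are not visible in values per gene.

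Levels are given as FPKM, fragments per kilobase of transcript scaled to the sequencing depth, so levels of different genes can be set side by side. The fragments assigned to genes numbered 16152379 to 21667129 per library, and a member had between 28 fragments (Derl3) and 21035 fragments (Hspa5) in a library. Group values are mean ± SD over 4 libraries. Differences were tested with limma on log2(FPKM + 1) over the 15164 genes that reached FPKM 1 in 4 or more libraries, and all 34 members were among them. "Rose" and "fell" mean an adjusted p under 0.05 in that fit, and log2 differences and folds are on that log2(FPKM + 1) scale, where changes of weakly expressed genes come out too small. Values per library follow the order of the library numbers, 1 to 4. AE-PF library 2 and ND-RHL library 4 stood apart from the other libraries by transcripts of stratified squamous epithelium (summed FPKM of 8 markers 1851 and 6181, against at most 11.97 elsewhere) and of skeletal muscle (742 and 1712, against at most 134).

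In AE-PF against saline, 8 members rose and 8 fell, which is 23.5% in each direction, where 26.4% of all genes tested rose and 30.2% fell. The 8 that rose were P4hb, Pdia3, Calr, Canx, Sec61a1, Sec61b, Edem1 and Atf6. The 8 that fell were Ddit3, Herpud1, Creld2, Syvn1, Dnajb9, Manf, Hspa5 and Dnajc3. In ND-RHL against AE-PF, 1 member rose (2.94%, against 24.3% of all genes tested) and 16 fell (47.1%, against 17.4%). In ND-RHL against saline, 0 members rose, against 13.3% of all genes tested, and 14 fell (41.2%, against 8.65%). With each library scaled to the same FPKM total, 15 members rose and 5 fell in AE-PF against saline. Of all 15164 genes tested, 5376 rose and 3163 fell under that scaling, against 4003 and 4575 without it. Genes that rose thus went from 46.7% to 63% of all genes called. In ND-RHL against AE-PF they went from 58.2% of all genes called to 37.8% under that scaling, 46.4% under quantile normalisation, 46.1% with median-of-ratios size factors and 46.3% with limma-voom. In ND-RHL against saline they went from 60.5% to 43.5% under quantile normalisation, 48.7% with median-of-ratios size factors and 47.6% with limma-voom. None of the 47 member calls had the opposite sign in any of the 24 alternatives that gave a value for it. With AE-PF 2 and ND-RHL 4 both left out, the members rose and fell in numbers of 8 and 8, 0 and 11, and 1 and 12 in the 3 comparisons in turn. Of the 14832 genes tested in that fit, 4137 and 4467, 3392 and 2628, and 2318 and 1360 did. AE-PF stands in the first 2 comparisons and saline in the first and the last, so their counts are not independent of each other. In bulk tissue such as this, fewer cells of a type and less RNA per cell cannot be told apart. The median log2 difference of the members was 0.04, -0.20 and -0.13 in these comparisons, where that of all genes tested was -0.03, 0.06 and 0.03. The members' median in AE-PF against saline was -0.02 under quantile normalisation and -0.001 without AE-PF 1, whereas the other 2 medians were below 0 in every alternative run.

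**Figure D1:**
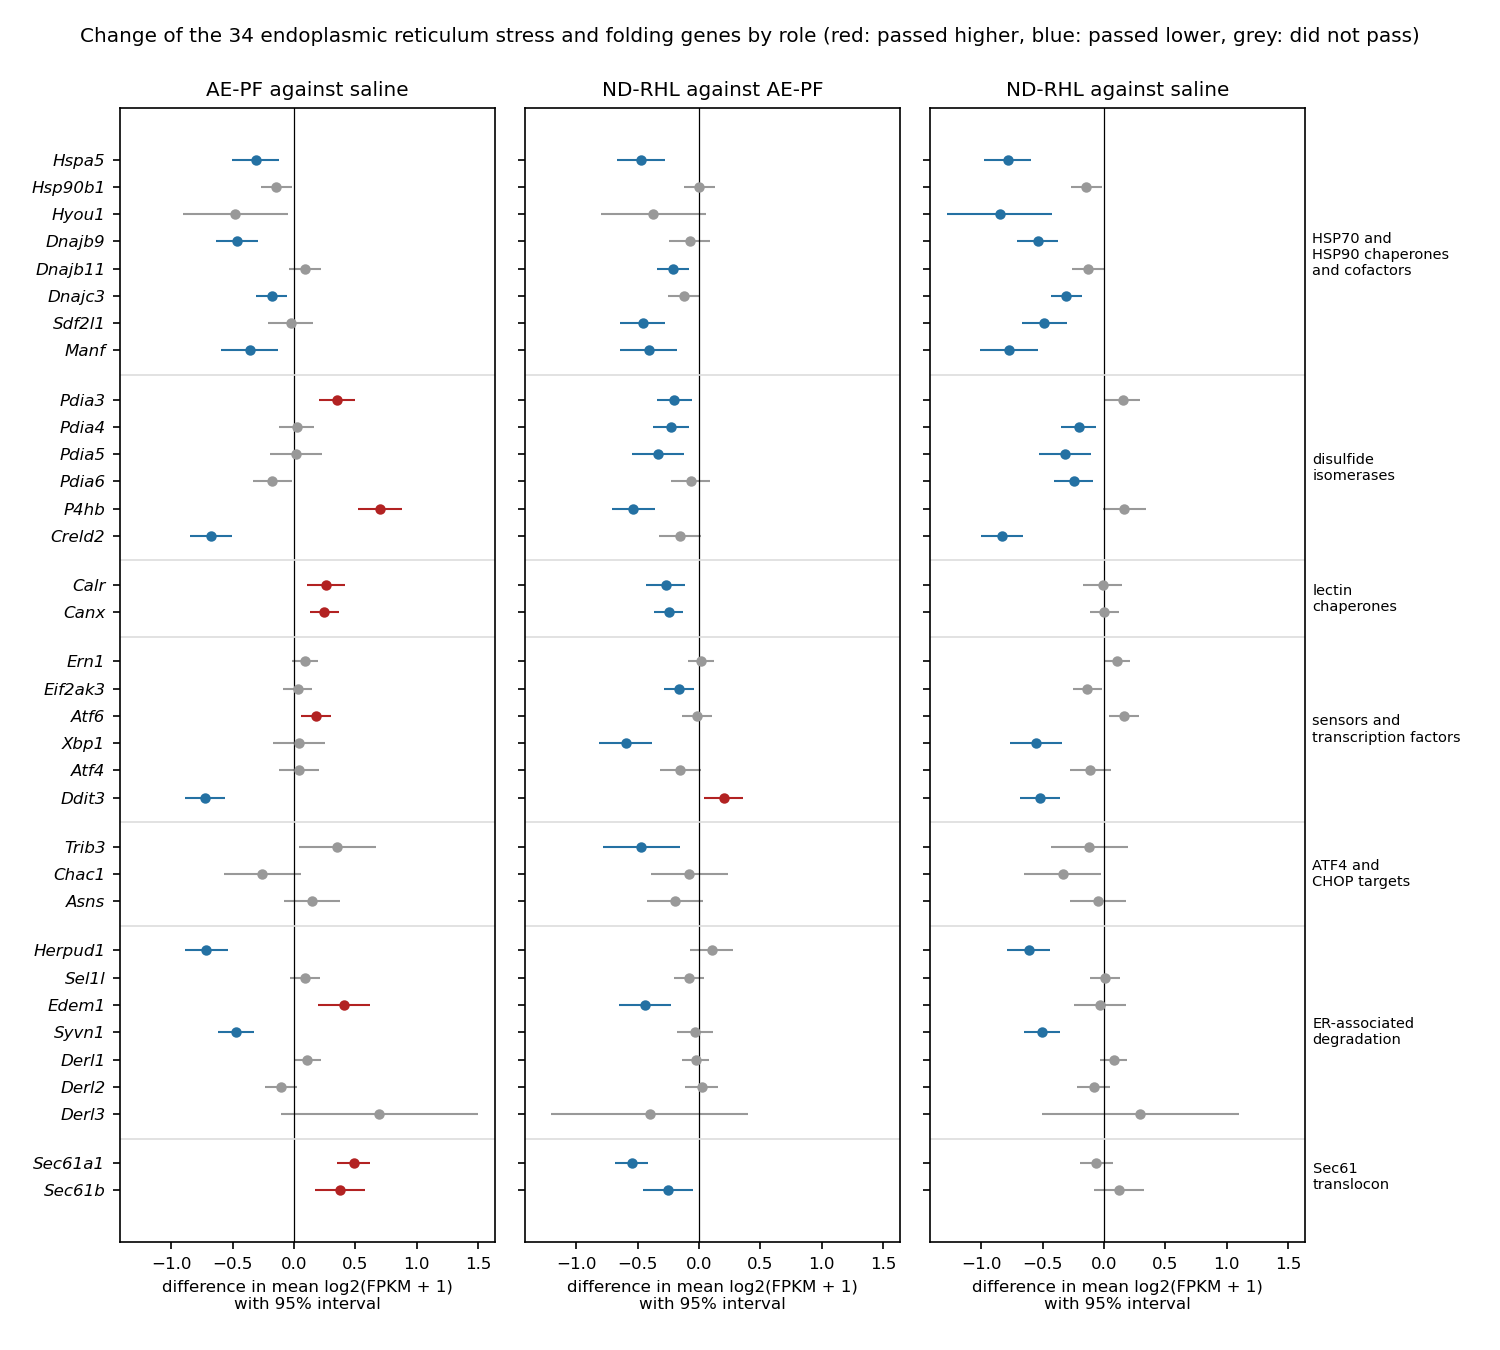
Difference in mean log2(FPKM + 1) of each of the 34 members (rows, grouped by role) in the 3 comparisons (panels), with its 95% interval from limma; red points passed as higher, blue as lower and grey did not pass at an adjusted p of 0.05. The 8 red and 8 blue points of the left panel are followed by 1 red and 16 blue points in the middle panel and by 0 red and 14 blue points in the right panel.

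Factors of the response bind known DNA elements in promoters, and several members carry these. Of the 34 members, 29 had an entry in the RefSeq promoter table (GRCm38.p6), which holds 250 bases before to 50 bases after each transcription start; Atf6, Derl1, Hyou1, Manf and Sec61a1 had none. The ER stress response element, bound by ATF6 together with the factor NF-Y, was searched on both strands as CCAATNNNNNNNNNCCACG. It was found in the promoters of 9 of the 29 genes and in 0.119% of the 32851 promoters of that length in the table. The sites are shown because they occur in members that fell in AE-PF (Hspa5, Dnajc3, Creld2, Syvn1), in members that rose (Calr, Canx) and in members that did not pass (Hsp90b1, Pdia6, Derl3). Capitals mark the 2 fixed blocks, and each site is written 5′ to 3′ from its CCAAT block.
Hspa5 (chr2:34772025-34772043, plus strand): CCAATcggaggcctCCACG
Dnajc3 (chr14:118937827-118937845, plus strand): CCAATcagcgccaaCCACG
Creld2 (chr15:88819520-88819538, minus strand): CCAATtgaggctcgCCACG
Syvn1 (chr19:6046532-6046550, plus strand): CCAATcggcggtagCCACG
Calr (chr8:84847075-84847093, plus strand): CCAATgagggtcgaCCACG
Canx (chr11:50325800-50325818, minus strand): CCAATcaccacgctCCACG
Hsp90b1, far site (chr10:86705638-86705656, minus strand): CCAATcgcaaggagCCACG
Hsp90b1, near site (chr10:86705533-86705551, plus strand): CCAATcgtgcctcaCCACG
Pdia6 (chr12:17266491-17266509, plus strand): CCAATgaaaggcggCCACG
Derl3 (chr10:75893242-75893260, minus strand): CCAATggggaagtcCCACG

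The related element ERSE-II, blocks ATTGG and CCACG with 1 base between them, searched on both strands, was found in 2 of the 29 genes (Herpud1 and Dnajb11) and in 0.0365% of all promoters. The C/EBP-ATF response element, read by ATF4 and CHOP and searched as TGATGNAA on both strands, was found in 4 of the 29 genes (Asns, Chac1, Herpud1 and Trib3) and in 3.97% of all promoters. The unfolded protein response element, searched as TGACGTGG on both strands, was found in 0 of the 29 genes and in 0.676% of all promoters. The letters CCACG that end the first 2 elements lie, on the other strand, within the unfolded protein response element, so matches of these could overlap. A match says only that these letters are present, and the values below do not bear on whether a factor was bound. The 250 bases before the start of Hspa5, Creld2 and Herpud1, which were among the members that fell, and of P4hb, the disulfide isomerase gene that rose most, are given with the matched elements in capitals.
Hspa5 (chr2:34771840-34772089, plus strand): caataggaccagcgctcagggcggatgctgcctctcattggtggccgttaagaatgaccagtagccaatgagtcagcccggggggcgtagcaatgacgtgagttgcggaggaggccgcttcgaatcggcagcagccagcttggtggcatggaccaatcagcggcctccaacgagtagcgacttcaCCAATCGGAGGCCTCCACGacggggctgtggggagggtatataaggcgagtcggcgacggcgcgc
Creld2 (chr15:88819396-88819645, plus strand): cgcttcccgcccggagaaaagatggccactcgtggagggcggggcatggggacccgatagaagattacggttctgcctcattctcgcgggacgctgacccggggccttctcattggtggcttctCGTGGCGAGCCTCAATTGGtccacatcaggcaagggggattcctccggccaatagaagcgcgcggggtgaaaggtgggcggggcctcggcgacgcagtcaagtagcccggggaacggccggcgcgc
Herpud1 (chr8:94386179-94386428, plus strand): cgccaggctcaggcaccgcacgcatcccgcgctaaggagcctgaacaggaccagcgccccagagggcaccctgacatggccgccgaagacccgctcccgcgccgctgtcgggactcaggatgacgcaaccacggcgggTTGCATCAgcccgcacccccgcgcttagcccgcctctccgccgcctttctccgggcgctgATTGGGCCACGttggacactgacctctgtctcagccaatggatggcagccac
P4hb (chr11:120573254-120573503, minus strand): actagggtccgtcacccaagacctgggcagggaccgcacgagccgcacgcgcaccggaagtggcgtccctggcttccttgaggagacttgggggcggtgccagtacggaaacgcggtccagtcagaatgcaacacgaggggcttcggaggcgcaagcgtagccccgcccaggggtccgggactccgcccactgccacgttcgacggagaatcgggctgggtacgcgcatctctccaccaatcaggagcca

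In these windows Hspa5 and Creld2 carry the ER stress response element, Herpud1 carries ERSE-II and the C/EBP-ATF element, and P4hb carries none of the 4 searched.

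Of the 8 chaperones of the HSP70 and HSP90 type and their cofactors, 4 fell and 0 rose in AE-PF against saline, 4 fell and 0 rose in ND-RHL against AE-PF, and 6 fell and 0 rose in ND-RHL against saline. The shares that fell were 50%, 50% and 75%, against 30.2%, 17.4% and 8.65% of all genes tested. Of all genes tested, 26.4%, 24.3% and 13.3% rose. Hspa5 encodes BiP, the main HSP70 of the ER, which holds the 3 sensors inactive until unfolded proteins draw it away. Its FPKM was 217, 202, 247 and 237 in saline libraries 1 to 4, 193, 173, 178 and 180.4 in AE-PF and 138, 147, 116 and 122 in ND-RHL. The 3 groups did not overlap, with saline highest and ND-RHL lowest. Hspa5 was 1.24-fold lower (log2 difference -0.31 ± 0.088 (SE), adjusted p = 0.0103) in AE-PF than in saline. It was 1.39-fold lower (log2 difference -0.47 ± 0.088 (SE), adjusted p = 0.00175) in ND-RHL relative to AE-PF, and 1.72-fold lower than in saline (adjusted p = 0.000328). With libraries scaled to equal FPKM totals, the first of these differences had an adjusted p of 0.105. Manf encodes a small ER protein that binds BiP and can be secreted. Its FPKM was 18.99, 18.1, 26.3 and 22.4 in saline libraries 1 to 4, 17.2, 16.6, 15.2 and 16.2 in AE-PF and 12.4, 13, 10.3 and 12.3 in ND-RHL. Its libraries likewise formed 3 groups without overlap, saline 3 being the highest and ND-RHL 3 the lowest. Manf was 1.29-fold lower (log2 difference -0.36 ± 0.107 (SE), adjusted p = 0.0131) in AE-PF than in saline and 1.33-fold lower (log2 difference -0.41 ± 0.107 (SE), adjusted p = 0.0103) in ND-RHL relative to AE-PF. With equal FPKM totals the first of these had an adjusted p of 0.0631.

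Dnajb9 encodes a J protein that brings BiP to the sensor IRE1 and to ERAD clients. Its FPKM was 34.4, 29.9, 35.01 and 39.9 in saline libraries 1 to 4, 24.4, 24.9, 24.8 and 25.1 in AE-PF and 23.7, 25.6, 21.8 and 22.9 in ND-RHL. All 8 challenged libraries lay below all saline libraries, and the AE-PF and ND-RHL libraries overlapped. Dnajb9 was 1.38-fold lower (log2 difference -0.47 ± 0.077 (SE), adjusted p = 0.000382) in AE-PF than in saline, and 1.46-fold lower in ND-RHL than in saline (adjusted p = 0.00109). The interval of the difference between ND-RHL and AE-PF was -0.24 to 0.09 on the log2 scale. Dnajc3, a J protein that also restrains PERK, had an FPKM of 59.4 ± 2.94 in saline, 52.2 ± 1.72 in AE-PF and 47.9 ± 3.25 in ND-RHL and fell in AE-PF against saline (adjusted p = 0.0176) and in ND-RHL against saline (adjusted p = 0.00418). Its call in AE-PF was lost without saline 3 (adjusted p = 0.0505), with equal FPKM totals (0.475), with median-of-ratios size factors (0.0644) and with limma-voom (0.0752).

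Sdf2l1 and Dnajb11 encode partners in a complex that delivers clients to BiP. Sdf2l1 FPKM was 24.8, 24.01, 26.7 and 26.8 in saline libraries 1 to 4, 25.4, 22.3, 26.2 and 26.6 in AE-PF and 20.1, 19.2, 15.3 and 17.6 in ND-RHL. The AE-PF and saline libraries overlapped, and all 4 ND-RHL libraries lay below the other 8. Sdf2l1 was 1.38-fold lower (log2 difference -0.46 ± 0.083 (SE), adjusted p = 0.00151) in ND-RHL relative to AE-PF and 1.4-fold lower than in saline (adjusted p = 0.0028). Dnajb11 had an FPKM of 36.7 ± 1.52 in saline, 38.99 ± 2.02 in AE-PF and 33.5 ± 2.34 in ND-RHL and fell in ND-RHL against AE-PF (adjusted p = 0.0134). Hyou1 encodes the large HSP70-like protein that recharges BiP with ATP. Its FPKM was 31.3, 28.9, 34.97 and 31.9 in saline libraries 1 to 4, 22.5, 18, 25.7 and 24.3 in AE-PF and 20.5, 21.9, 10.2 and 18.4 in ND-RHL. ND-RHL 3 was the lowest library, well below the other 3 of its group. Hyou1 was 1.81-fold lower (log2 difference -0.85 ± 0.195 (SE), adjusted p = 0.0116) in ND-RHL than in saline. In AE-PF against saline all 4 AE-PF libraries were below all saline libraries, yet the adjusted p was 0.0543. That p was 0.00299 in a fit without ND-RHL 3, whose group enters the shared estimate of the spread. Hyou1 passed as lower in AE-PF against saline in 6 of 24 alternatives. Hsp90b1, the HSP90 of the ER, had an FPKM of 111 ± 4.31 in saline, 100.4 ± 4.3 in AE-PF and 100.5 ± 6.3 in ND-RHL and did not pass in any comparison (adjusted p = 0.052, 0.997 and 0.0982). All its AE-PF libraries lay below all saline libraries. In that comparison it passed as lower in 5 of 24 alternatives, among them the fit without ND-RHL 4 (adjusted p = 0.039).

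**Figure D2:**
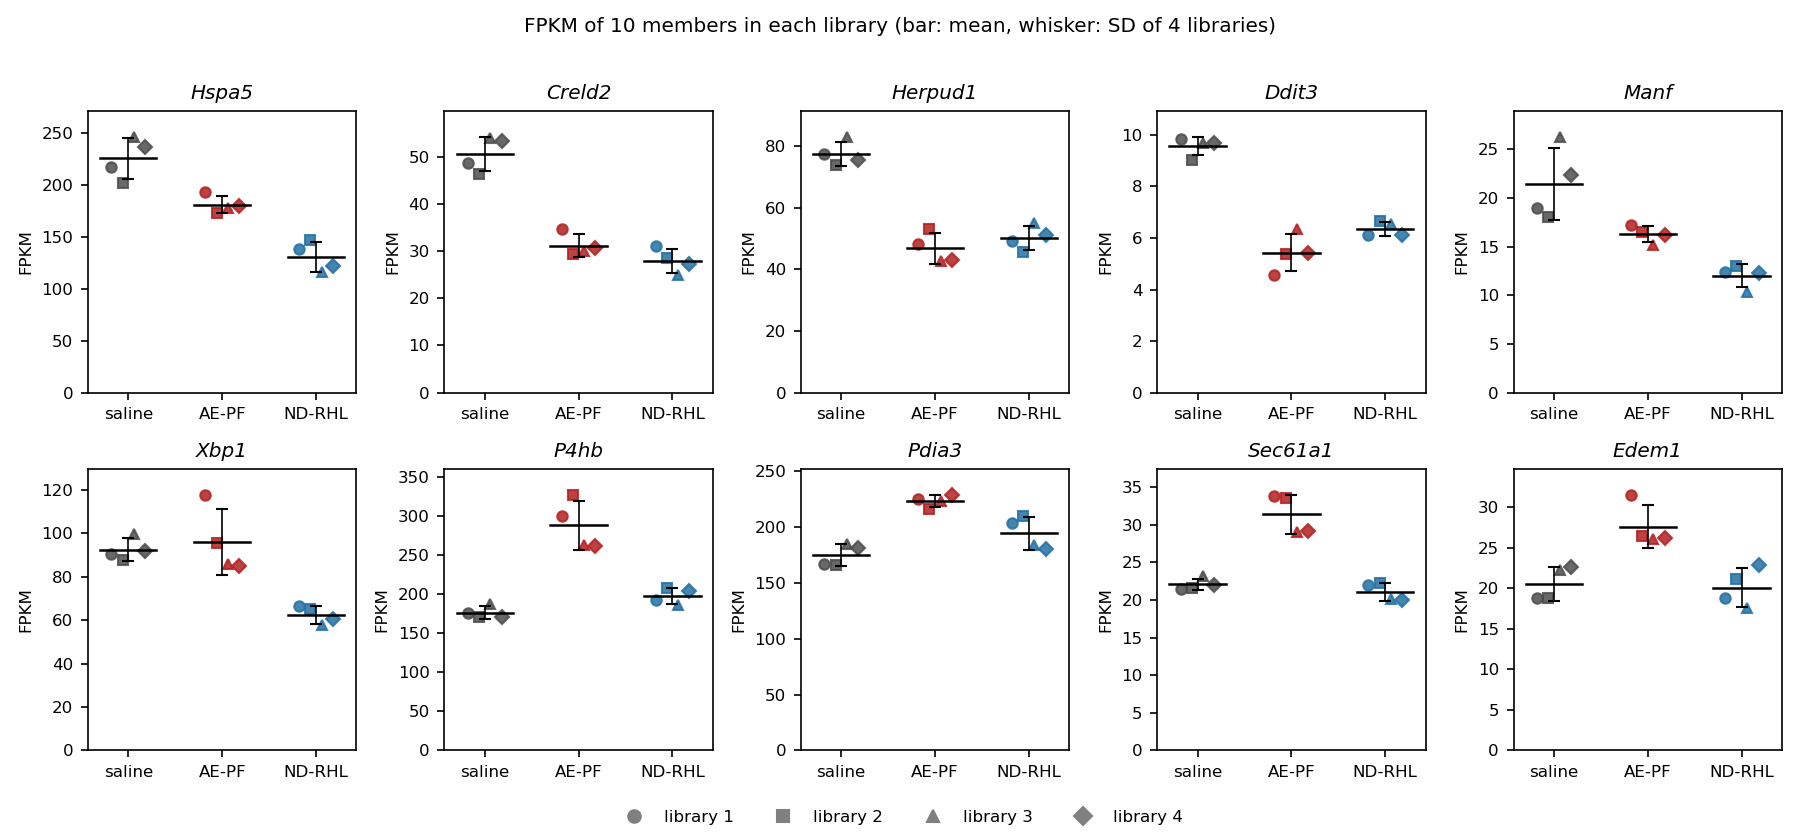
FPKM of 10 members in each library (points, shape by library number) by group (colour), with mean (bar) and SD (whisker) of 4 libraries; each axis starts at 0. Hspa5 and Manf stepped down from saline to AE-PF to ND-RHL, Creld2, Herpud1 and Ddit3 lay lower in both challenged groups, and P4hb, Sec61a1 and Edem1 were high in AE-PF and close to saline in ND-RHL.

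The 6 disulfide isomerases and related proteins, which form and reshuffle the disulfide bonds of secreted proteins, were split in AE-PF: 2 rose (33.3%) and 1 fell (16.7%). Of all genes tested, 26.4% rose and 30.2% fell. P4hb encodes protein disulfide isomerase, which is also the beta subunit of the prolyl 4-hydroxylase that modifies collagen. Its FPKM was 175, 171, 188 and 170.2 in saline libraries 1 to 4, 299, 327, 262 and 262 in AE-PF and 192, 207, 185 and 204 in ND-RHL. Every AE-PF library lay above all saline and ND-RHL libraries, and AE-PF 1 and 2 were the highest. P4hb was 1.63-fold higher (log2 difference 0.70 ± 0.08 (SE), adjusted p = 3.29e-05) in AE-PF than in saline and 1.45-fold lower (log2 difference -0.54 ± 0.08 (SE), adjusted p = 0.000501) in ND-RHL relative to AE-PF. The interval of its difference between ND-RHL and saline was -0.01 to 0.34 on the log2 scale (adjusted p = 0.168). Pdia3, the isomerase that works with calnexin and calreticulin on glycoproteins, had an FPKM of 167, 166, 185 and 181 in saline libraries 1 to 4, 225, 216, 224 and 229 in AE-PF and 204, 210.4, 184 and 180.2 in ND-RHL. Its AE-PF libraries were all above the other 8. Pdia3 was 1.28-fold higher (log2 difference 0.35 ± 0.066 (SE), adjusted p = 0.000933) in AE-PF than in saline. It fell in ND-RHL against AE-PF (adjusted p = 0.0308), a call that was lost on leaving out AE-PF 1, 3 or 4 or ND-RHL 3 or 4 (adjusted p of 0.0702, 0.0555, 0.0662, 0.0831 and 0.0686).

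Creld2, an ER protein with isomerase activity known for its rise under ER stress, went the other way. Its FPKM was 48.6, 46.4, 53.9 and 53.4 in saline libraries 1 to 4, 34.7, 29.4, 29.9 and 30.7 in AE-PF and 31.1, 28.6, 24.9 and 27.3 in ND-RHL. The highest challenged library, AE-PF 1, was below the lowest saline library, and AE-PF and ND-RHL overlapped. Creld2 was 1.6-fold lower (log2 difference -0.68 ± 0.078 (SE), adjusted p = 3.27e-05) in AE-PF than in saline and 1.78-fold lower (log2 difference -0.83 ± 0.078 (SE), adjusted p = 0.00012) in ND-RHL than in saline. The difference between ND-RHL and AE-PF had an interval of -0.32 to 0.02. Pdia4, Pdia5 and Pdia6, further isomerases of the family, did not pass in AE-PF against saline (adjusted p = 0.807, 0.905 and 0.0554). Pdia4 had an FPKM of 66.6 ± 4.08 in saline, 67.6 ± 3.64 in AE-PF and 57.6 ± 4.14 in ND-RHL and Pdia5 one of 8.73 ± 0.767 in saline, 8.87 ± 1.2 in AE-PF and 6.82 ± 0.705 in ND-RHL, and both fell in ND-RHL against AE-PF (adjusted p = 0.0166 and 0.0181). Without AE-PF 1 these p were 0.0537 and 0.0525, and without both AE-PF 2 and ND-RHL 4 that of Pdia5 was 0.0939. Pdia6 had an FPKM of 79.96 ± 2.21 in saline, 70.7 ± 5.24 in AE-PF and 67.5 ± 6.23 in ND-RHL. All its AE-PF libraries lay below all saline libraries, and it passed as lower in AE-PF against saline in 6 of 24 alternatives.

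All 3 fell in ND-RHL against saline (adjusted p = 0.0422, 0.0381 and 0.0336), and these were the 3 of the 14 calls in that comparison that did not hold in every alternative. With the replicate number as a block, the adjusted p of Pdia5 was 0.0531 and that of Pdia6 was 0.0631, and in a block fit of these 2 groups alone that of Pdia4 was 0.0814 and that of Pdia6 0.0564. Pdia4 was also lost without saline 1, 3 or 4, AE-PF 3 or 4, or ND-RHL 2, 3 or 4 (adjusted p from 0.0553 to 0.109). The call of Pdia5 was lost without any 1 saline library, ND-RHL 1 or ND-RHL 4 (0.0549 to 0.0999). For Pdia6 it was lost without any 1 saline library, ND-RHL 3 or ND-RHL 4 (0.0589 to 0.0787).

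The lectin chaperones calreticulin (Calr) and calnexin (Canx) hold newly made glycoproteins by their sugar chains until these are folded. Calr FPKM was 225, 225, 239.9 and 226 in saline libraries 1 to 4, 277, 251, 285 and 286 in AE-PF and 241, 245, 214 and 209 in ND-RHL, and Canx FPKM was 102, 98.8, 101 and 108 in saline libraries 1 to 4, 123, 116, 122 and 126 in AE-PF and 107, 108, 98.3 and 96.5 in ND-RHL. For both genes all AE-PF libraries lay above all saline and ND-RHL libraries, and the saline and ND-RHL libraries overlapped. Calr was 1.2-fold higher (log2 difference 0.26 ± 0.072 (SE), adjusted p = 0.00924) in AE-PF than in saline and 1.21-fold lower in ND-RHL relative to AE-PF (adjusted p = 0.0113). Under quantile normalisation these 2 adjusted p were 0.0539 and 0.0871. Canx was 1.19-fold higher (log2 difference 0.25 ± 0.054 (SE), adjusted p = 0.0024) in AE-PF than in saline and 1.19-fold lower in ND-RHL relative to AE-PF (adjusted p = 0.0043). Against saline, the ND-RHL intervals were -0.17 to 0.15 for Calr and -0.12 to 0.12 for Canx.

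Sec61a1 and Sec61b encode 2 subunits of the Sec61 channel, through which new proteins enter the ER. Sec61a1 FPKM was 21.5, 21.6, 23.2 and 22.02 in saline libraries 1 to 4, 33.8, 33.5, 29.1 and 29.2 in AE-PF and 21.97, 22.3, 20.1 and 20.03 in ND-RHL. The AE-PF libraries were all above the other 8, AE-PF 1 and 2 again being the highest, and ND-RHL and saline overlapped. Sec61a1 was 1.4-fold higher (log2 difference 0.49 ± 0.062 (SE), adjusted p = 6.98e-05) in AE-PF than in saline and 1.46-fold lower (log2 difference -0.55 ± 0.062 (SE), adjusted p = 0.000101) in ND-RHL relative to AE-PF. Its ND-RHL level differed from saline by an interval of -0.20 to 0.07. Sec61b had an FPKM of 30.5 ± 4.62 in saline, 39.4 ± 1.12 in AE-PF and 33.01 ± 2.39 in ND-RHL and was 1.29-fold higher (log2 difference 0.37 ± 0.093 (SE), adjusted p = 0.00542) in AE-PF than in saline. Its fall in ND-RHL against AE-PF had an adjusted p of 0.0493 and was lost in 15 of 24 alternatives, among them leaving out saline 4 or any 1 of the 8 AE-PF and ND-RHL libraries (adjusted p from 0.0539 to 0.134).

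Among the 6 sensor and transcription factor genes, 1 rose (16.7%) and 1 fell (16.7%) in AE-PF, against 26.4% and 30.2% of all genes tested. Ddit3 encodes CHOP, the factor tied to cell death under lasting ER stress. Its FPKM was 9.86, 9.04, 9.7 and 9.67 in saline libraries 1 to 4, 4.56, 5.39, 6.35 and 5.42 in AE-PF and 6.12, 6.65, 6.53 and 6.11 in ND-RHL. All challenged libraries were below all saline libraries. Ddit3 was 1.65-fold lower (log2 difference -0.72 ± 0.074 (SE), adjusted p = 1.63e-05) in AE-PF than in saline and 1.44-fold lower (log2 difference -0.52 ± 0.074 (SE), adjusted p = 0.00109) in ND-RHL than in saline. It was the 1 member that rose in ND-RHL against AE-PF (1.15-fold, adjusted p = 0.0492), with overlapping libraries. That call was lost in 21 of 24 alternatives, including the fits without any 1 of 11 libraries (AE-PF 3 was the exception; adjusted p from 0.0557 to 0.13 in the 11). Ddit3 exons overlap those of Mars on the opposite strand in the annotation, and the strand setting of the counting was not stated in those sources.

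Xbp1, the target of IRE1 and a factor of secretory cells, had an FPKM of 90.3, 87.9, 99.8 and 91.98 in saline libraries 1 to 4, 118, 95.5, 85.9 and 84.8 in AE-PF and 66.7, 65.3, 57.9 and 60.4 in ND-RHL. AE-PF libraries spanned the saline range and beyond, with AE-PF 1 highest, and all 4 ND-RHL libraries were below the other 8. Xbp1 was 1.52-fold lower (log2 difference -0.60 ± 0.098 (SE), adjusted p = 8e-04) in ND-RHL relative to AE-PF and 1.47-fold lower (log2 difference -0.56 ± 0.098 (SE), adjusted p = 0.00306) in ND-RHL than in saline. The AE-PF difference from saline had an interval of -0.17 to 0.26 (adjusted p = 0.729). Atf6 FPKM was 11.3 ± 0.553 in saline, 12.9 ± 0.544 in AE-PF and 12.8 ± 0.845 in ND-RHL, and it rose 1.13-fold in AE-PF (adjusted p = 0.0162, 0.0505 without AE-PF 1). In ND-RHL against saline its adjusted p was 0.0532. It passed as higher there in 5 of 24 alternatives, among them the fit without both AE-PF 2 and ND-RHL 4 (0.0231). Eif2ak3, the PERK gene, had an FPKM of 7.59 ± 0.391 in saline, 7.76 ± 0.463 in AE-PF and 6.81 ± 0.328 in ND-RHL and fell in ND-RHL against AE-PF (adjusted p = 0.0315). That call was lost in 12 of 24 alternatives, among them leaving out AE-PF 1, 2 or 3 or ND-RHL 1, 3 or 4 (adjusted p from 0.05 to 0.0889). Ern1 and Atf4 passed in no comparison, with FPKM of 8.74 ± 0.287 in saline, 9.38 ± 0.373 in AE-PF and 9.51 ± 0.519 in ND-RHL for Ern1 and of 70.4 ± 6.02 in saline, 72.3 ± 2.74 in AE-PF and 65.1 ± 5.8 in ND-RHL for Atf4. All AE-PF libraries of Ern1 lay above all saline libraries, and in 4 of 24 alternatives it passed as higher in AE-PF against saline. Atf4 passed as lower in ND-RHL against AE-PF in 4 of 24, and as higher in AE-PF against saline in 1.

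The 3 targets of ATF4 and CHOP among the members were of low to moderate level. Trib3, a pseudokinase induced by CHOP, had an FPKM of 2.65, 2.51, 2.92 and 2.07 in saline libraries 1 to 4, 3.51, 4.3, 3.39 and 2.91 in AE-PF and 1.81, 3.18, 2.5 and 1.7 in ND-RHL. AE-PF 1 to 3 were above all other libraries, and the ND-RHL libraries spanned a wider range than saline. Trib3 was 1.39-fold lower (log2 difference -0.47 ± 0.143 (SE), adjusted p = 0.0214) in ND-RHL relative to AE-PF, a call lost without AE-PF 2, ND-RHL 1 or ND-RHL 4 (adjusted p = 0.0579, 0.0601 and 0.0529) and at 0.114 without both AE-PF 2 and ND-RHL 4. In AE-PF against saline it had an adjusted p of 0.0536, which was 0.0372 without AE-PF 4, 0.0262 without ND-RHL 2 and 0.0412 without ND-RHL 4. Trib3 passed as higher there in 9 of the 23 alternatives that gave a value. Among them were equal FPKM totals (0.0196), median-of-ratios size factors (0.0447), limma-voom (0.0473) and the replicate block (0.0174). Chac1, which degrades glutathione, had an FPKM of 2.27 ± 0.389 in saline, 1.76 ± 0.532 in AE-PF and 1.59 ± 0.319 in ND-RHL. Asns, which makes asparagine, had an FPKM of 8.49 ± 0.256 in saline, 9.62 ± 1.77 in AE-PF and 8.18 ± 0.728 in ND-RHL, with AE-PF 1 and 2 at 11.0 and 11.3 and AE-PF 3 and 4 at 8.04 and 8.14. Neither passed in any comparison in the fit that defines the calls. With array weights, Chac1 passed as lower in AE-PF against saline (adjusted p = 0.00636). With equal FPKM totals, Asns passed as higher in AE-PF against saline (0.0381) and as lower in ND-RHL against AE-PF (0.0312). All 4 ND-RHL libraries of Chac1 lay below all saline libraries, and in the block fit of those 2 groups alone its adjusted p was 0.0358 (log2 difference -0.34), against 0.116 without the block and 0.143 with the block in all 12 libraries.

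In the ERAD group of 7 genes, 1 rose (14.3%) and 2 fell (28.6%) in AE-PF, against 26.4% and 30.2% of all genes tested. Herpud1 encodes a membrane protein that organises the degradation complex and is induced by all 3 arms of the response. Its FPKM was 77.5, 73.9, 83.1 and 75.5 in saline libraries 1 to 4, 48.4, 53.2, 42.9 and 43.01 in AE-PF and 49.3, 45.7, 55.02 and 51.3 in ND-RHL. Each challenged library was at most 55.0, and each saline library at least 73.9. Herpud1 was 1.64-fold lower (log2 difference -0.72 ± 0.079 (SE), adjusted p = 2.62e-05) in AE-PF than in saline and 1.53-fold lower (log2 difference -0.61 ± 0.079 (SE), adjusted p = 0.000701) in ND-RHL than in saline. Syvn1, the ubiquitin ligase of the complex, had an FPKM of 16.7, 16.5, 18.2 and 17.3 in saline libraries 1 to 4, 11.9, 11.3, 12.1 and 13.2 in AE-PF and 10.8, 11.7, 11.4 and 13.4 in ND-RHL, again with every challenged library below every saline one. Syvn1 was 1.39-fold lower (log2 difference -0.47 ± 0.067 (SE), adjusted p = 0.000146) in AE-PF than in saline and 1.42-fold lower (log2 difference -0.51 ± 0.067 (SE), adjusted p = 0.000796) in ND-RHL than in saline. For Herpud1 and Syvn1 the intervals between ND-RHL and AE-PF were -0.07 to 0.28 and -0.18 to 0.11. Syvn1 exons overlap those of Mrpl49 on the opposite strand.

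Edem1 encodes the lectin that hands misfolded glycoproteins to ERAD. Its FPKM was 18.8, 18.8, 22.2 and 22.6 in saline libraries 1 to 4, 31.6, 26.5, 26.1 and 26.2 in AE-PF and 18.8, 21.1, 17.5 and 22.9 in ND-RHL. AE-PF lay above the other 8 libraries, and saline and ND-RHL overlapped. Edem1 was 1.33-fold higher (log2 difference 0.41 ± 0.097 (SE), adjusted p = 0.00411) in AE-PF than in saline and 1.36-fold lower (log2 difference -0.44 ± 0.097 (SE), adjusted p = 0.00427) in ND-RHL relative to AE-PF. Sel1l, the partner of Syvn1, and Derl1 and Derl2, channel proteins, passed in no comparison and had mean FPKM of 26.6 to 28.3 (Sel1l), 37.1 to 40.04 (Derl1) and 8.71 to 9.46 (Derl2) over the 3 groups. Derl1 passed as higher in AE-PF against saline in 4 of 24 alternatives and Sel1l in 1. With equal FPKM totals, both also passed as lower in ND-RHL against AE-PF.

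Derl3, the derlin of secretory cells, varied most between libraries of 1 group. Its FPKM was 1.3, 0.948, 1.24 and 0.951 in saline libraries 1 to 4, 4.98, 4.58, 1.27 and 0.776 in AE-PF and 1.43, 1.18, 1.11 and 2.94 in ND-RHL. AE-PF 1 and 2 and ND-RHL 4 were high, and AE-PF 3 and 4 were within or below the saline range. Derl3 did not pass in AE-PF against saline (log2 difference 0.70 ± 0.366 (SE), adjusted p = 0.126), and the p was 0.0222 without AE-PF 4. The summed FPKM of 12 plasma cell markers, of which Igkc and Igha were the most abundant, was 3638, 2466, 762 and 462 in the AE-PF libraries and 564, 543, 374 and 1636 in the ND-RHL libraries, against 50.2 to 99.1 in saline. The same 3 libraries were thus the highest in both, and 0 of the 12 markers were at 0 in every library. Of 10 tested, 8 rose and 1 (Mzb1) fell in AE-PF against saline, and Tnfrsf17 and Eaf2 were too low to be tested. Their part in the Derl3 values was not tested.

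**Figure D3:**
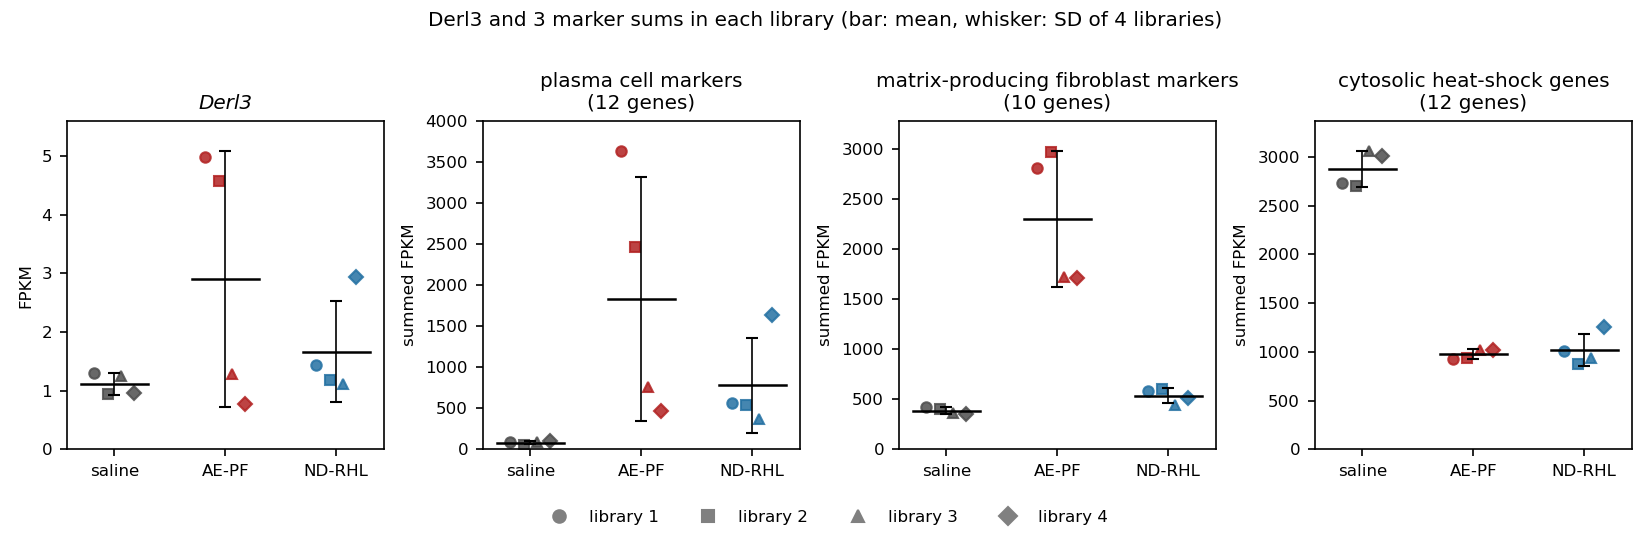
FPKM of Derl3 and summed FPKM of 3 marker lists in each library (points, shape by library number) by group, with mean (bar) and SD (whisker) of 4 libraries. Derl3 and the plasma cell markers were highest in AE-PF 1 and 2 and ND-RHL 4, the fibroblast markers in all 4 AE-PF libraries, and the cytosolic heat-shock genes in all 4 saline libraries.

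Ratios of 2 members within a library do not depend on how libraries are scaled to each other. The 5 ratios below were chosen after the values were seen and are given as a description. P4hb to Hspa5 was 0.782 ± 0.0544 in saline, 1.59 ± 0.202 in AE-PF and 1.52 ± 0.139 in ND-RHL. Pdia3 to Creld2 was 3.46 ± 0.084 in saline, 7.19 ± 0.474 in AE-PF and 6.97 ± 0.457 in ND-RHL. In both, all 8 challenged libraries lay above all saline libraries, and the AE-PF and ND-RHL libraries overlapped. Sec61a1 to Syvn1 was 1.29 ± 0.0192 in saline, 2.61 ± 0.355 in AE-PF and 1.8 ± 0.233 in ND-RHL, and Edem1 to Herpud1 was 0.266 ± 0.0246 in saline, 0.592 ± 0.0667 in AE-PF and 0.402 ± 0.0657 in ND-RHL. These 2 ratios were highest in AE-PF and intermediate in ND-RHL, without overlap between the 3 groups. Hsp90b1 to Hspa5 was 0.493 ± 0.0246 in saline, 0.554 ± 0.0152 in AE-PF and 0.772 ± 0.0452 in ND-RHL, with all 4 ND-RHL libraries above the other 8.

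**Figure D4:**
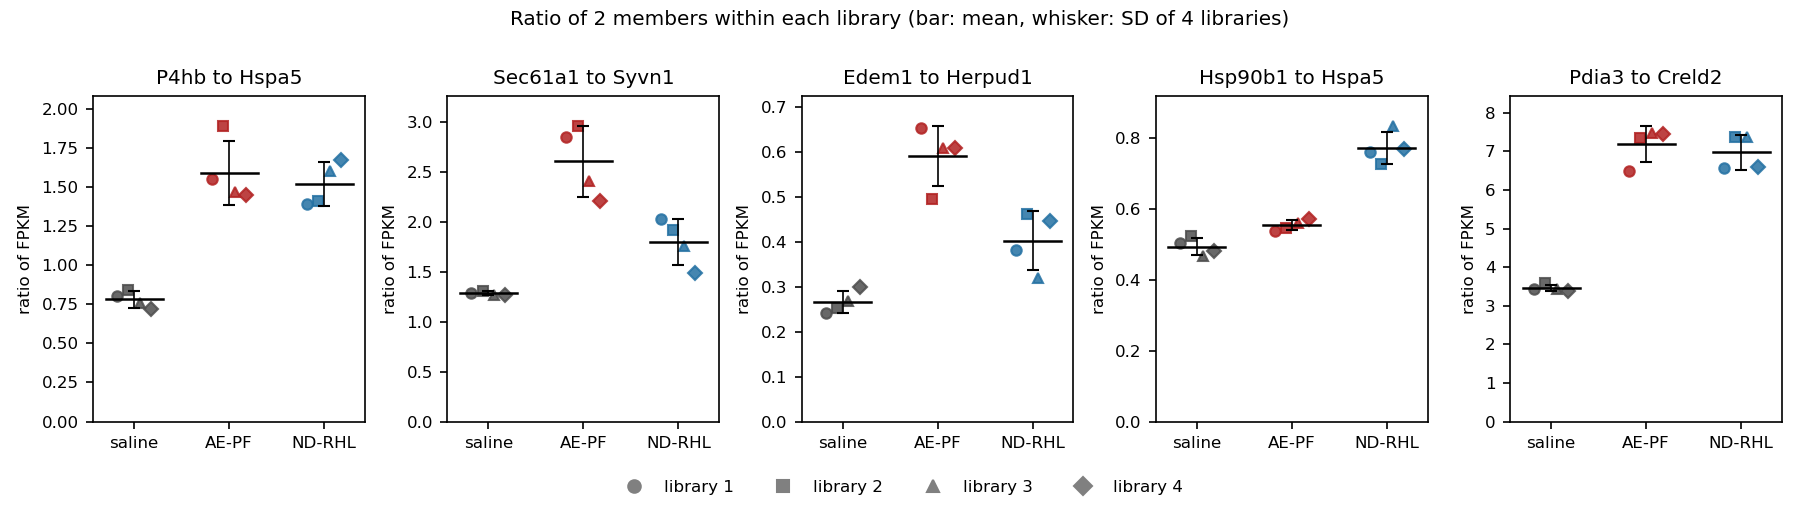
Ratio of the FPKM of 2 members in each library (points, shape by library number) by group, with mean (bar) and SD (whisker) of 4 libraries; each axis starts at 0. P4hb to Hspa5 was between 0.718 and 0.843 in saline and between 1.39 and 1.89 in the 8 challenged libraries, and Hsp90b1 to Hspa5 was highest in the 4 ND-RHL libraries.

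Other genes of the secretory pathway were counted in 9 lists of 196 genes, of which 195 were in the table and 188 were tested. In AE-PF against saline, 103 rose (54.8%) and 26 fell (13.8%), where 26.4% and 30.2% of all genes did. In ND-RHL against AE-PF, 14 rose (7.45%) and 91 fell (48.4%), against 24.3% and 17.4% of all genes tested. In ND-RHL against saline, 25 rose (13.3%) and 24 fell (12.8%), against 13.3% and 8.65% of all genes tested. The median log2 difference of these genes was 0.20, -0.17 and 0.03 in turn. With equal FPKM totals the counts were 123 and 11, 7 and 119, and 28 and 21, and without AE-PF 2 and ND-RHL 4 they were 99 and 27, 9 and 94, and 32 and 27. In ND-RHL against saline the larger count turned with the scaling, to 18 and 28 under quantile normalisation, 15 and 28 with median-of-ratios size factors and 13 and 28 with limma-voom.

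In the transport between ER and Golgi, of 23 COPII coat and KDEL receptor genes, 17 rose (73.9%) and 2 fell (8.7%) in AE-PF. In ND-RHL against AE-PF, 0 rose and 16 fell (69.6%). Kdelr3, a receptor that returns escaped chaperones to the ER, had an FPKM of 8.72 ± 0.899 in saline, 36.3 ± 8.83 in AE-PF and 14 ± 1.51 in ND-RHL (3.77-fold higher in AE-PF, adjusted p = 3.23e-06). The cargo receptor gene Surf4 had an FPKM of 58.4 ± 2.33 in saline, 101 ± 10.6 in AE-PF and 59.3 ± 5.45 in ND-RHL and Tmed9 one of 34.3 ± 1.2 in saline, 47.9 ± 2.56 in AE-PF and 36.97 ± 1.74 in ND-RHL. Among 21 further translocon, signal peptidase and signal recognition particle genes, 14 rose (66.7%) and 1 fell (4.76%) in AE-PF. In ND-RHL against AE-PF, 1 rose (4.76%) and 11 fell (52.4%). Ssr3 (61.6 ± 4.31 in saline, 105 ± 11.6 in AE-PF and 69.2 ± 4.3 in ND-RHL), Spcs1 (34.8 ± 2.31 in saline, 50.4 ± 2.94 in AE-PF and 40.9 ± 0.554 in ND-RHL), Srp72 (16.3 ± 0.235 in saline, 23.3 ± 0.628 in AE-PF and 19.5 ± 0.939 in ND-RHL) and Tram2 (5.25 ± 0.476 in saline, 9.2 ± 0.594 in AE-PF and 6.25 ± 0.569 in ND-RHL) rose in AE-PF against saline and fell in ND-RHL against AE-PF. Of 20 genes of N-glycan transfer and trimming, 11 rose (55%) and 3 fell (15%) in AE-PF, and 0 rose and 11 fell (55%) in ND-RHL against AE-PF. The oligosaccharyltransferase genes Ostc, Stt3a and Ddost rose 1.47-fold, 1.33-fold and 1.31-fold (adjusted p = 0.00021, 9.47e-05 and 0.000313).

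Of 15 collagen folding helpers, 9 rose (60%) and 3 fell (20%) in AE-PF, and 1 rose (6.67%) and 12 fell (80%) in ND-RHL against AE-PF. P4ha3, an alpha subunit of prolyl 4-hydroxylase that pairs with P4hb, went from 0.514 ± 0.148 in saline to 16.4 ± 5.65 in AE-PF and 1.33 ± 0.873 in ND-RHL. P3h1, which hydroxylates collagen at other prolines, had an FPKM of 7.87 ± 0.386 in saline, 23.2 ± 2.47 in AE-PF and 9.17 ± 1.19 in ND-RHL, and Fkbp10, a prolyl isomerase for collagen, one of 6.78 ± 0.741 in saline, 31.6 ± 8.88 in AE-PF and 9.31 ± 0.901 in ND-RHL. All 3 rose in AE-PF (adjusted p = 2.71e-06, 1.43e-06 and 3.84e-06) and fell in ND-RHL against AE-PF (adjusted p = 3.19e-05, 1.34e-05 and 4.75e-05). Of 23 other oxidoreductases and isomerases, 12 rose (52.2%) and 2 fell (8.7%) in AE-PF, and 2 rose (8.7%) and 12 fell (52.2%) in ND-RHL against AE-PF. The isomerase genes Ppic and Fkbp14 rose 3.71-fold and 2.35-fold (adjusted p = 3.02e-06 and 2.21e-06), while Pdia2 fell 1.9-fold (adjusted p = 2.19e-05).

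Ddit3 and Trib3 belong to the PERK and ATF4 arm, and of 31 other genes of that arm tested, 16 rose (51.6%) and 5 fell (16.1%) in AE-PF. In ND-RHL against AE-PF, 3 rose (9.68%) and 13 fell (41.9%). Slc7a5, an amino acid transporter, had an FPKM of 2.11 ± 0.283 in saline, 9.87 ± 2.45 in AE-PF and 3.54 ± 0.503 in ND-RHL. Psat1, of serine synthesis, had one of 2.57 ± 0.246 in saline, 9.27 ± 1.11 in AE-PF and 5.72 ± 2.19 in ND-RHL, and Mthfd2, of mitochondrial folate metabolism, one of 2.06 ± 0.21 in saline, 5.86 ± 0.533 in AE-PF and 3.57 ± 0.771 in ND-RHL. These 3 rose in AE-PF (adjusted p = 4.57e-06, 3.9e-05 and 9.91e-06), and Aars, an aminoacyl-tRNA synthetase gene, rose 1.31-fold (adjusted p = 0.00029). Of 22 further ERAD genes, 7 rose (31.8%) and 6 fell (27.3%) in AE-PF, against 26.4% and 30.2% of all genes tested. In ND-RHL against AE-PF, 4 rose (18.2%) and 6 fell (27.3%), against 24.3% and 17.4% of all genes tested. With equal FPKM totals the ERAD counts were 11 and 0, and 1 and 10, and 1 gene called lower in AE-PF had the opposite sign. Vcp, which pulls ERAD clients from the membrane, rose 1.36-fold in AE-PF, as did Ube2j1 (1.42-fold) and Erlec1 (1.68-fold), and March6 fell in AE-PF and rose in ND-RHL (adjusted p = 0.000485 and 0.000923).

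Of 14 other ER co-chaperones and J proteins, 7 rose (50%) and 1 fell (7.14%) in AE-PF. In ND-RHL against AE-PF, 1 rose (7.14%) and 2 fell (14.3%), against 24.3% and 17.4% of all genes tested. Creld1, the paralog of Creld2, had an FPKM of 11.4 ± 0.692 in saline, 7.63 ± 0.498 in AE-PF and 9.66 ± 0.757 in ND-RHL and fell in AE-PF (adjusted p = 5.69e-05) and rose in ND-RHL against AE-PF (adjusted p = 0.0037). Dnajb12 and Hspa13 rose 1.18-fold and 1.23-fold in AE-PF. Among 19 other sensors and membrane-bound factors, 10 rose (52.6%) and 3 fell (15.8%) in AE-PF, and 2 rose (10.5%) and 8 fell (42.1%) in ND-RHL against AE-PF. Creb3l1, a membrane-bound factor of matrix-secreting cells, had an FPKM of 11.5 ± 0.722 in saline, 16.2 ± 0.788 in AE-PF and 7.67 ± 0.639 in ND-RHL and fell below saline in ND-RHL (adjusted p = 0.000523). Creb3 rose 1.41-fold in AE-PF, and Map3k5, a stress kinase gene downstream of IRE1, fell 1.69-fold (adjusted p = 1.79e-05 and 6.21e-05).

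**Figure D5:**
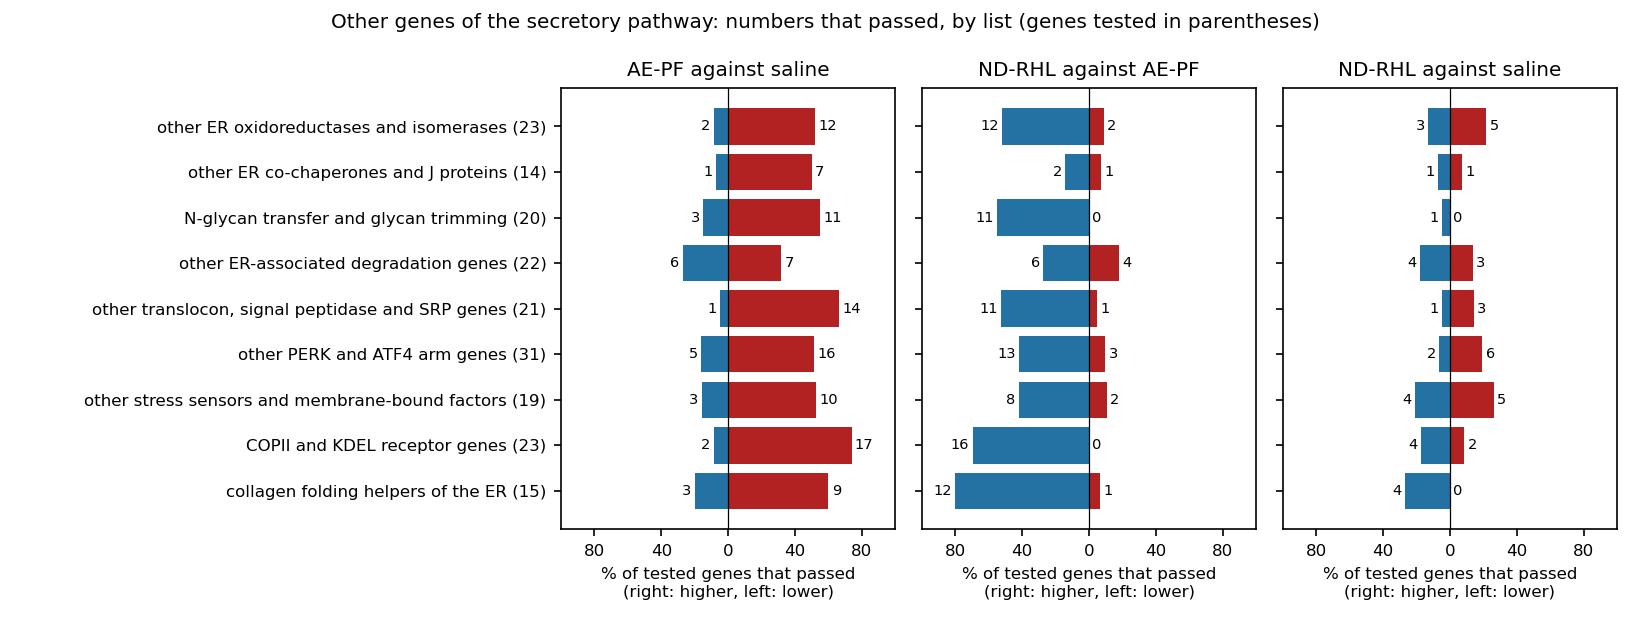
Share of the tested genes of each of 9 secretory pathway lists that passed as higher (red, to the right) or lower (blue, to the left) in the 3 comparisons (panels), with the number of genes at each bar. COPII and KDEL receptor genes went from 17 higher and 2 lower in AE-PF against saline to 0 higher and 16 lower in ND-RHL against AE-PF.

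Several cell type markers and heat-shock genes moved with these groups. For comparison, 26.4% of all genes tested rose and 30.2% fell in AE-PF against saline. The shares were 24.3% and 17.4% in ND-RHL against AE-PF, and 13.3% and 8.65% in ND-RHL against saline. All 12 cytosolic heat-shock genes, led by Hsp90ab1 and Hspa8, fell in AE-PF against saline and all 12 fell in ND-RHL against saline, with summed FPKM of 2698 to 3062 in saline, 928 to 1021 in AE-PF and 875 to 1252 in ND-RHL. This stands beside the members that were lower in both challenged groups (Hspa5, Dnajb9, Dnajc3, Manf, Creld2, Ddit3, Herpud1 and Syvn1). All 10 matrix-producing fibroblast markers, Fn1 and Col1a1 highest, rose in AE-PF and 9 fell in ND-RHL against AE-PF, with summed FPKM of 352 to 423 in saline, 1717 to 2972 in AE-PF and 444 to 607 in ND-RHL. Of 12 monocyte and recruited macrophage markers, 12 rose in AE-PF and 10 fell and 1 rose in ND-RHL against AE-PF, with summed FPKM of 392 to 502 in saline, 1814 to 2589 in AE-PF and 497 to 1083 in ND-RHL. These stand beside P4hb, Pdia3, Calr, Canx, Sec61a1, Sec61b and Edem1, which rose in AE-PF and fell in ND-RHL against AE-PF. In ND-RHL against saline, 10 of the 12 monocyte and macrophage markers and 2 of the 10 fibroblast markers rose. None of those members passed in that comparison. All 10 alveolar type 2 cell markers, Sftpc and Sftpb highest, fell in AE-PF and rose in ND-RHL against AE-PF (13790 to 17380 in saline, 1681 to 5377 in AE-PF and 10250 to 18260 in ND-RHL), as did club and secretory cell markers (8 of 8, then 6 of 8), ciliated cell markers (8 of 8, then 8 of 8) and endothelial markers (9 of 10, then 8 of 10). None of the markers in these 7 lists was at 0 in every library, and the surfactant gene Sftpc and the secretoglobin gene Scgb1a1, which define lung, had mean FPKM of 11820 and 30030 in saline. Heart muscle markers (8 of 8) and adipocyte markers (7 of 7) fell in AE-PF, with summed FPKM of 343 to 606 in saline, 31.2 to 54.7 in AE-PF and 144 to 745 in ND-RHL and of 131 to 708 in saline, 5.17 to 33.4 in AE-PF and 24.4 to 935 in ND-RHL. The 10 markers of T, B and natural killer cells, Cd79a and Gzma highest, had summed FPKM of 45.2 to 56.6 in saline, 14.6 to 61.2 in AE-PF and 109 to 150 in ND-RHL, and 7 rose in ND-RHL against AE-PF and 5 in ND-RHL against saline. They were high in the group in which 16 and 14 members fell. Of 9 mitochondrially encoded genes, mt-Co1 and mt-Cytb highest, 4 fell in AE-PF against saline and 4 rose in ND-RHL against AE-PF, with summed FPKM of 13360 to 18470 in saline, 10070 to 11250 in AE-PF and 12520 to 18950 in ND-RHL. Other lists were mixed in AE-PF against saline. Of 8 alveolar type 1 cell markers 1 rose and 4 fell, of 8 alveolar macrophage markers 1 rose and 4 fell, and of 7 neutrophil markers 1 rose and 5 fell. In ND-RHL against AE-PF, 3 rose and 0 fell, 3 rose and 0 fell, and 0 rose and 1 fell in these lists in turn. The part of any of these markers or genes in the members' differences was not tested.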

How the data were processed

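RNA of 12 mouse lung samples was measured by poly(A) RNA-seq, per the labels' protocols. The authors deposited 1 table of FPKM values for 35599 genes. Tools listed, without their roles, in the submitters' processing notes are STAR 2.7.9a, Subread 2.0.1, featureCounts, Trim Galore 0.6.6, DESeq2 1.30.1 and FastQC; the genome is given there as mm10 and as GRCm38. The strand setting and the treatment of reads with several matches are not stated, so members whose exons overlap a gene on the other strand (10 of 34) are less certain. They are Hsp90b1, Dnajb9, Manf, Pdia3, Pdia6, Eif2ak3, Ddit3, Syvn1, Derl2 and Sec61a1. Exons of 4 members (Hsp90b1, Manf, Pdia4 and Ddit3) also overlap another gene entry on the same strand.

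FPKM values were tested as log2(FPKM + 1) with limma 3.58.1 (trend) in R 4.3.3, with all 12 libraries in 1 fit (9 residual degrees of freedom), for genes with FPKM of 1 or more in 4 or more libraries. Tests were 2-sided and adjusted by Benjamini-Hochberg over all 15164 genes. The FPKM values gave whole fragments for 35599 of 35599 genes, and these were tested with limma-voom as an alternative. Promoters came from RefSeq GRCm38.p6, matched by symbol, and intervals are 95%.

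Same-numbered libraries of ND-RHL and saline deviated together from their group means (correlations 0.397, 0.188, 0.114 and 0.173), so a fit with the replicate number as a block is given beside the results of that comparison whose call it changes. The values reported for it come from the fit without the block. The scripts were tested on simulated data. The 34 members and all gene lists were chosen with earlier results of these data known. All members are described by role; of each pathway list, up to 3 genes with the smallest p among those passing in AE-PF against saline and up to 2 in ND-RHL against AE-PF are named; of each marker list, the 2 most abundant. Retention signals were not analysed here. The alternatives were other pseudocounts, filters, scalings, weights, blocks and sample sets, and the block fit within 2 groups was added after seeing the data.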

Additional observations from a re-analysis of the deposited data

Results flagged for a closer look

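Each of the 34 members was checked in each group of 4 libraries, 102 groups in all, for a library far from the other 3 relative to the range of the group. This marked 4 groups, where chance marks about 1 in 20. Calr was 239.9 FPKM in saline 3, with the nearest saline library at 225.6. Chac1 was 2.848 FPKM in saline 3, with the nearest at 2.143. Edem1 was 31.58 FPKM in AE-PF 1, with the nearest at 26.46. Sec61b was 29.45 FPKM in ND-RHL 3, the lowest of its group, with the nearest at 33.9.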

How the results depend on the processing

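Of the member calls, 11 of 16 in AE-PF against saline, 7 of 17 in ND-RHL against AE-PF and 11 of 14 in ND-RHL against saline held in every alternative that gave a value. With equal FPKM totals, 15 members were higher and 5 lower in AE-PF against saline, as were 5376 and 3163 of all 15164 genes tested. In ND-RHL against AE-PF, 0 members were higher with no filter, equal FPKM totals, quantile normalisation, median-of-ratios size factors, limma-voom, only the 2 groups compared, the replicate block, the replicate block within the 2 groups, and without AE-PF 2 and ND-RHL 4. There, 22 members were lower with equal FPKM totals, 19 with median-of-ratios size factors, 18 with limma-voom and 13 under quantile normalisation, against 16. Of all 15164 genes tested, 3874, 3420, 3414 and 3223 were lower in turn, against 2646. In ND-RHL against saline, 1 member was higher with an FPKM filter of 5, with equal FPKM totals and without AE-PF 2 and ND-RHL 4, and 2 with array weights. Leaving out 1 library at a time gave 7 to 10 higher and 7 to 10 lower in AE-PF against saline, 0 to 1 and 11 to 16 in ND-RHL against AE-PF, and 0 to 1 and 11 to 14 in ND-RHL against saline. These fits tested 15002 to 15069 genes. Of them, 3617 to 4139 were higher and 3922 to 4686 lower in AE-PF against saline. The numbers were 2722 to 3765 and 2066 to 2712 in ND-RHL against AE-PF, and 1229 to 2442 and 779 to 1511 in ND-RHL against saline. The causes of these changes were not tested.

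With the replicate block, 9 members were higher and 8 lower in AE-PF against saline, 0 and 13 in ND-RHL against AE-PF, and 0 and 12 in ND-RHL against saline. Of all 15164 genes tested, that fit called 3943 higher and 4528 lower, 3545 and 2516, and 1766 and 1150 in turn. The block within 2 groups, added after seeing the data, gave 8 and 9, 0 and 9, and 0 and 13. It ended the calls of Manf (adjusted p = 0.0557) and Atf6 (0.0598) in AE-PF against saline and, in ND-RHL against AE-PF, those of Dnajb11 (0.077), Pdia4 (0.0608), Pdia5 (0.0631), Calr (0.121) and Canx (0.0721), beside Pdia3, Eif2ak3 and Ddit3. Over all genes it called 1934 higher and 1556 lower in ND-RHL against AE-PF, against 3686 and 2646. In AE-PF against saline it called 3678 higher and 4077 lower, and in ND-RHL against saline 2014 and 1335. In AE-PF against saline and in ND-RHL against AE-PF the numbers were not shown to pair the libraries (correlations from -0.181 to 0.065 and from -0.387 to 0.339). Libraries correlated best with their own number for number 1 alone in these 2 comparisons and for numbers 1 and 4 in ND-RHL against saline, where the block fits changed the calls of Pdia4, Pdia5, Pdia6 and Chac1 and no other member's. In ND-RHL against saline the numbers of genes called differed over 1.5 times from the 2011 higher and 1312 lower in the fits without saline 1 (1260 and 823) and without saline 2 (1229 and 779). With equal FPKM totals, 2359 genes were higher in ND-RHL against AE-PF, against 3686. The lowest fragment numbers in a library were those of Derl3 (28 to 169 over the libraries) and Chac1 (34 to 94).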
